A study of Mus musculus with 18 samples.

Results

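Tendon fibroblasts grown from adult mouse tendon were compared after they had received supernatant of stimulated adult T cells or T cell medium alone. The comparison rests on 6 of the 18 RNA-seq libraries of the series, 3 with adult supernatant against 3 with medium, chosen by their labels alone. All cells were wild type (WT), and cells from 4 digested adult tendons shared a well, so each culture pooled tendons. The cells had been passaged and frozen, and after thawing they were cultured for 3 days and given 1 ml of complete DMEM with 1 ml of medium or supernatant. Of the other libraries, 3 of adult cells with supernatant of stimulated neonatal T cells, and 6 of neonatal cells (from 3 tendons per well) with medium or adult supernatant, served to test where the response differed. Mouse age in days, sex and strain, the stimulus of the T cells and the duration of treatment were not given in the sources used here. Labels do not tie libraries to separate animals or cultures, so p-values measure the spread between libraries, which may be technical.

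Activated T cells secrete interferon-gamma, tumour necrosis factor, interleukin-17, interleukin-4 and other cytokines in mixtures that depend on the kind of T cell. Interferon-gamma acts through a receptor with the subunits Ifngr1 and Ifngr2 and the kinases Jak1 and Jak2, and switches on Irf1 and, with it, genes for antigen presentation and defence against intracellular microbes. Tendon fibroblasts build a matrix of type I collagen fibrils, express the transcription factors Scx and Mkx and the membrane protein Tnmd, and carry load through actin stress fibres and integrins.

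Numbers in brackets after a gene are its log2 fold change ± standard error for adult supernatant against medium, from limma on all 18 libraries, and levels are deposited CPM less the offset that all genes carry, given for libraries 1 to 3 of a group in order. A gene rose or fell where its Benjamini-Hochberg adjusted p was under 0.05 over all 14391 genes, and among the genes named with a rise or fall the largest adjusted p was 0.0456 (Mpo). By that rule 4052 genes rose (28.2%) and 3438 fell (23.9%), and the median of all genes was 0.03. Of these, 2399 rises (16.7%) and 1025 falls (7.12%) were at least 2-fold. Each list of genes is read against these shares and that median, and its own median is of log2 fold changes of all measured members. The lists were chosen with earlier results of these data known, so a list that departs from all genes is a description and not a test. Quantile normalization lowered the median of all genes by 0.12 and turned the split of the calls to 3139 higher and 4395 lower.

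Library 2 with adult supernatant was the shallowest of the 6, at an estimated 13.0 M reads against 14.4 to 17.5 M in the others, and lay farthest out on the first principal component. Without it 3479 genes rose and 3329 fell. Media library 2 read above both other media libraries for several interferon genes, among them Isg15 and Zbp1. Without it 3780 genes rose and 3190 fell, and of 19 interferon-inducible GTPases 18 rose and 0 fell (median 7.16). Genes that averaged under 1 CPM in media rose far more often than they fell, as 1236 of 1935 rose and 19 fell, while of 3920 genes at 50 CPM or more 870 rose and 1595 fell. Without library 2, 1011 of those 1935 rose and 21 fell, and with quantile normalization 719 rose and 136 fell. The deposited table keeps genes that reach 1 CPM in at least 3 libraries, so a gene this low in media had to be higher in other groups. Among such genes are 68 odorant and vomeronasal receptors, known from olfactory tissue and picked after their values were seen. Their summed level was 35.8, 40.6 and 36.0 CPM in media and 377, 712 and 281 CPM with adult supernatant. This low-level rise was largest in library 2. Its part in the rises of genes near the floor of 3 reads (0.172 to 0.231 CPM) was not tested. Levels are printed for some of these genes, while others are given only as log2 values, group means or list sums.

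Promoter sequence of a few genes is shown because interferon-gamma and stress-fibre genes are known for short binding sequences near their starts. The windows are the 250 bases before the RefSeq start on GRCm38.p6, another build than the GRCm39 of the deposited table. Capitals mark matches to TTCNNNGAA (GAS, the interferon-gamma activated site), to GAAANNGAAA or its reverse complement (ISRE, bound by interferon regulatory factors) or, in Myl9 and Vcl, to the CArG box of serum response factor.
Irf1, chr11:53769764-53770013, plus strand: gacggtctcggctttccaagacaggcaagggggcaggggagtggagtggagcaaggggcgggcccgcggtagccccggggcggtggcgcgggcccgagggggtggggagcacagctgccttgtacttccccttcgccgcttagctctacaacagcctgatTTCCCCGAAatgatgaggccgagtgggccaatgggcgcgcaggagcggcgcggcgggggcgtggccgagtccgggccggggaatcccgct
Gbp5, chr3:142496684-142496933, plus strand: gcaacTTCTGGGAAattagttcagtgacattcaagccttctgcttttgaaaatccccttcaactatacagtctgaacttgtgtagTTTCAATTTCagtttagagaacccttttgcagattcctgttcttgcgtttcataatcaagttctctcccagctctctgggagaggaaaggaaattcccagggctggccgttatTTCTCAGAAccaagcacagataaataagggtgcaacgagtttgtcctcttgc
Igtp, chr11:58199306-58199555, plus strand: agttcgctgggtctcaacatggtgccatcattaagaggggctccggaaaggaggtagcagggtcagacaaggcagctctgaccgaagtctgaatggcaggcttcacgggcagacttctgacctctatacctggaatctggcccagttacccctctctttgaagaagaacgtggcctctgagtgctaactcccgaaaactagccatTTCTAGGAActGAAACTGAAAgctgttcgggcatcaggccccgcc
Myl9, chr2:156775214-156775463, plus strand: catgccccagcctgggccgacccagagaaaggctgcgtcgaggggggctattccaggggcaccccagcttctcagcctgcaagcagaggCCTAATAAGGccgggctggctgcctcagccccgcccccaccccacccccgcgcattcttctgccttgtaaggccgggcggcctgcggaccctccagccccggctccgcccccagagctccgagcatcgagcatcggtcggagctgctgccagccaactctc
Vcl, chr14:20929148-20929397, plus strand: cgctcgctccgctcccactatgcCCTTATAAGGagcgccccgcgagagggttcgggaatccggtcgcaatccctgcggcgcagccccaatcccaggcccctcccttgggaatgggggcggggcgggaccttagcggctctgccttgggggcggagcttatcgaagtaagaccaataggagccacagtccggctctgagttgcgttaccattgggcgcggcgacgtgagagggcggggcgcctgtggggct

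Irf1 held a GAS match 90 bases before its start, Gbp5 GAS matches 245 and 52 bases before it and an ISRE match at 165, and Igtp held both motifs within 45 bases of the start. Myl9 held a CArG box 161 bases and Vcl 227 bases before the start. A window was found for 10502 genes of the table, and 7.34% of these held GAS, 3.19% ISRE, 1.39% the kappaB motif GGGANNTTCC on either strand, and 1.47% a CArG box. Of 216 genes with a window that rose by at least 3 log2 units, to at least 5 CPM, 14.4% held GAS, 15.3% ISRE, 3.7% kappaB and 2.31% a CArG box. Of 159 genes that fell by at least 2 log2 units from at least 5 CPM the shares were 6.92%, 2.52% and 0.0%, and 3.77% held a CArG box. Igtp, Myl9 and Vcl were picked after their values were seen, as genes of their lists whose windows hold these motifs. Irf1 has 2 windows, and the window shown was chosen because it holds GAS. In the shares a gene counts if any of its windows holds the motif. A match is a run of letters and is not shown to be a binding site.

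The kinases and targets of the interferon-gamma chain rose, and its ligand-binding receptor subunit did not pass. Ifngr1, the ligand-binding subunit, read 45, 47 and 43.4 CPM in media and 40.6, 47.2 and 45.8 CPM with adult supernatant (-0.02 ± 0.09, adjusted p = 0.857), so its groups overlapped. Ifngr2, the signalling subunit, rose (0.37 ± 0.10). Jak2 (1.55 ± 0.15) and Jak1 (1.17 ± 0.05), the receptor-bound kinases, rose more. Irf1, a direct target of the pathway, read 22.5, 23.9 and 21.7 CPM in media and 565, 496 and 572 CPM with adult supernatant (4.58 ± 0.21). All 3 libraries with adult supernatant lay far above media. Irf8 (5.50 ± 0.41), a partner factor of leukocytes, and Nlrc5 (4.56 ± 0.40), the switch for MHC class I genes, rose alike. Ciita, the switch for MHC class II genes, rose (4.13 ± 0.67) from a low level, at 0, 0.761 and 0.297 CPM in media and 5.88, 9.44 and 4.33 CPM with adult supernatant. Socs1, which blocks JAK1 and JAK2, read 0, 1.59 and 2.34 CPM in media and 125, 82 and 109 CPM with adult supernatant (7.00 ± 0.71). Of the list for this chain, 9 of 10 rose and 0 fell (median 1.56). The list also holds Irf9 and Usp18, which rose and are of type I interferon signalling as well. Its count and median are therefore not of interferon-gamma alone.

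Other JAK, STAT and IRF genes mostly rose. Of the JAK, STAT and SOCS genes, 13 of 18 measured members rose and 1 fell (median 0.92). Socs3 (4.97 ± 0.19), which answers interleukin-6-type cytokines, and Cish (3.18 ± 0.21), a STAT5 target, followed Socs1, and Stat2 (2.66 ± 0.46), of type I signalling, rose. Stat6, the factor of interleukin-4 and interleukin-13, was the member that fell (-0.19 ± 0.06), and without adult-supernatant library 3 it missed the threshold (-0.15, adjusted p = 0.0544). In the list of interferon regulatory factors, 8 of 11 measured members rose and 0 fell (median 2.69). The list also holds Batf2, Nlrc5 and Ciita, which rose and are not of that family. Its count and median are therefore not those of the factors alone. Batf2 (8.07 ± 0.53), a partner of IRF1, led the list, at 0.412, 0 and 0.0713 CPM in media and 69.1, 49.3 and 76.9 CPM with adult supernatant. Irf7 (2.69 ± 0.68) of the type I arm rose, and Irf3, which starts that arm, did not pass (0.17 ± 0.27, adjusted p = 0.614). In the list of receptors for T cell cytokines, 17 of 24 rose and 1 fell (median 0.65). Il13ra2 (7.69 ± 0.43), the interleukin-13 decoy receptor, led it, and Il17ra, the shared interleukin-17 receptor subunit, did not pass (0.04 ± 0.18, adjusted p = 0.872). Tnfrsf1b (0.51 ± 0.11), the second receptor for tumour necrosis factor, rose.

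Interferon-inducible GTPases, which attack the vacuoles of intracellular microbes, held 6 of the 15 largest rises. Of their list, 18 of 19 measured members rose and 1 fell (median 6.87). Gbp4 was at 0 CPM in all media libraries and at 391, 350.1 and 414 CPM with adult supernatant, at least 2185-fold higher with each media library set at 3 reads. Gbp5, whose promoter is shown above, read 0.219, 0.569 and 0.509 CPM in media and 170.2, 125 and 202 CPM with adult supernatant. Igtp read 3.89, 12.5 and 4.68 CPM in media and 1265, 1096 and 1336 CPM with adult supernatant (7.62 ± 0.59). Gbp6 (9.41 ± 0.59) and the pair Tgtp1 (8.14 ± 0.51) and Tgtp2 (8.74 ± 0.46) rose as much, and Iigp1 by 8.56 ± 0.65. The Gbp genes are close copies of each other, as are Tgtp1 and Tgtp2, so kallisto may have split reads between them and single values are uncertain. Mx1, an antiviral GTPase of the type I arm, was the member that fell (-0.56 ± 0.19), at 19.4, 23 and 14 CPM in media and 10.9, 16.5 and 10.8 CPM with adult supernatant. It missed the threshold without media library 1 or 2 or adult-supernatant library 1 or 3 (adjusted p from 0.0616 to 0.115). Of the 10 GTPase genes with a promoter window, 9 held ISRE and 6 held GAS, against 3.19% and 7.34% of all genes. Of the 6 immunoproteasome genes, which all rose, 0 held ISRE and 1 held GAS, and of 13 acute phase and antimicrobial genes 1 held ISRE and 4 held GAS.

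Genes of protein cleavage and tagging rose. The 6 genes of the immunoproteasome, the proteasome form that cuts peptides for MHC class I, all rose (median 3.30). Psmb8 read 2.27, 5.24 and 2.88 CPM in media and 185, 178 and 181 CPM with adult supernatant, Psmb9 rose (5.58 ± 0.31) and Psmb10 by 3.93 ± 0.33, and the cap subunits Psme1 (2.68 ± 0.15) and Psme2 (2.49 ± 0.17) by less. In the constitutive core, 10 of 14 measured members rose and 0 fell (median 0.36), and its catalytic subunits Psmb5 (0.13 ± 0.08, adjusted p = 0.174), Psmb6 (0.10 ± 0.08, adjusted p = 0.314) and Psmb7 (0.05 ± 0.06, adjusted p = 0.459), which the immune subunits replace, did not pass. Among ubiquitin-like tags, 10 of 12 measured members rose and 0 fell (median 2.11). Ubd, the tag FAT10, was at 0 CPM in media and at 7.69, 8.63 and 13.4 CPM with adult supernatant, at least 56.2-fold higher. Isg15 (4.04 ± 0.96), at 2.61, 12.5 and 2.68 CPM in media and 75.4, 70.7 and 80.6 CPM with adult supernatant, and the enzymes of its transfer Uba7 (3.78 ± 0.48) and Ube2l6 (3.59 ± 0.24) rose together. Media library 2 was the highest of the media libraries for Isg15, and its groups did not overlap.

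Enzymes that consume arginine and tryptophan were among the largest rises. Nos2, inducible nitric oxide synthase, read 3.8, 4.57 and 3.05 CPM in media and 3558, 3153 and 3325 CPM with adult supernatant, so its mean was 879-fold higher. Gch1 (2.56 ± 0.23), which makes the cofactor of nitric oxide synthases, and Slc7a2 (1.26 ± 0.17), an arginine transporter, rose, whereas Pts (-1.27 ± 0.17), the next enzyme of cofactor synthesis after Gch1, fell. Ass1, which rebuilds arginine from citrulline, did not pass (-0.15 ± 0.08, adjusted p = 0.154; with quantile normalization -0.25, adjusted p = 0.0171). Irg1, the itaconate-making enzyme of activated macrophages, was at 0 CPM in media and at 13.6, 12.8 and 19.3 CPM with adult supernatant, at least 86.4-fold higher. Ido2 (4.74 ± 0.35) and Ido1 (4.49 ± 0.31), which start tryptophan breakdown, rose from 1.44 to 40.3 CPM and from 0.521 to 14.5 CPM on average. Nampt (2.63 ± 0.12), of NAD salvage, also rose. In the whole list, 12 of 20 measured members rose and 1 fell (median 1.71).

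**Figure D1:**
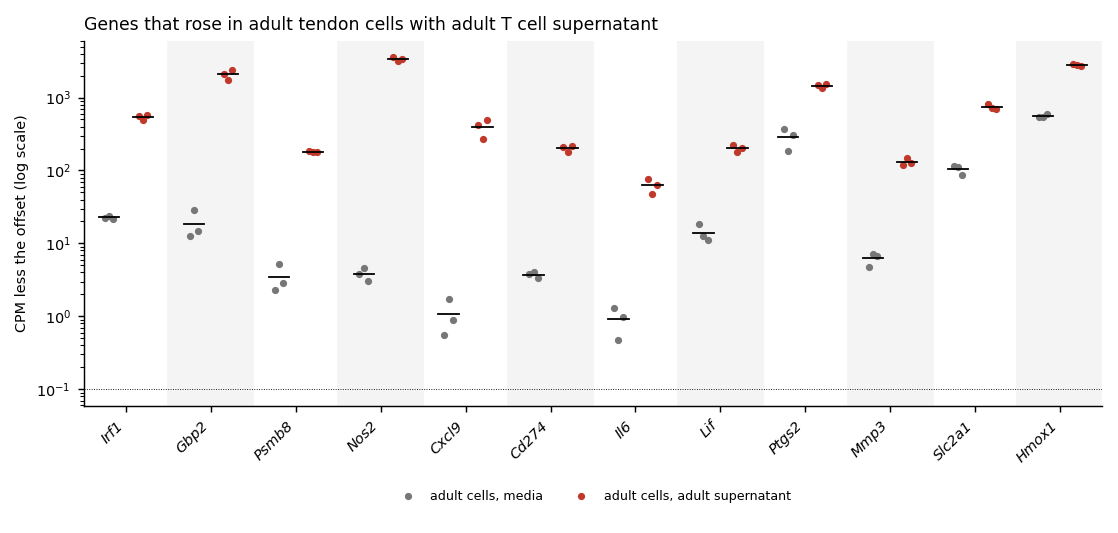
CPM less the offset (log axis) of 12 genes in each library of adult tendon cells in media (grey, n = 3) and with adult supernatant (red, n = 3), with black lines at group means and values under 0.1 CPM drawn at the dotted line. The groups do not overlap for any of the 12, and Nos2 lies at 3.05 to 4.57 CPM in media against 3153 to 3558 CPM with adult supernatant. The 12 were chosen among genes that rose, and of all 14391 genes 4390 lay higher and 3899 lower without overlap.

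Chemokines for T cells and for neutrophils both rose, while the homeostatic Cxcl12 and Cxcl14 did not. Of CXC chemokines, 7 of 9 measured members rose and 1 fell (median 4.69). Cxcl9, a ligand of the T cell receptor CXCR3, read 0.554, 1.74 and 0.891 CPM in media and 414, 267 and 499 CPM with adult supernatant, and Cxcl10 (6.70 ± 0.44), which binds the same receptor, rose from 1.25 to 139 CPM on average. The neutrophil chemokines Cxcl1 (4.69 ± 0.38), Cxcl2 (5.21 ± 0.44) and Cxcl3 (5.59 ± 0.53) rose, the last pair from under 1 CPM. Cxcl12, which holds haematopoietic cells in place, read 330.0, 398 and 419 CPM in media and 401, 365 and 385 CPM with adult supernatant (0.01 ± 0.15, adjusted p = 0.957), and Cxcl14 fell (-1.01 ± 0.23). Of CC and CX3C chemokines, 4 of 10 rose and 2 fell (median 0.62), the rises being Ccl8 (6.30 ± 0.21), Ccl11 (5.30 ± 0.31), Ccl2 (4.00 ± 0.12) and Ccl7 (2.83 ± 0.10), which attract monocytes and eosinophils. With quantile normalization 4 rose and 3 fell, and the median turned to -0.047. Cx3cl1 (-0.79 ± 0.21) was among the falls. In the list of atypical and scavenging chemokine receptors the 3 measured members rose (median 1.92), with Ackr3, which removes CXCL12, by 1.92 ± 0.14. With quantile normalization only 1 of the 3 passed. The list includes Cxcr4, a signalling receptor, so its count is not of scavenging receptors alone.

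Of growth and survival factors for leukocytes, 12 of 17 measured members rose and 1 fell (median 2.08). Il6 read 1.28, 0.474 and 0.994 CPM in media and 76.3, 48.3 and 63.1 CPM with adult supernatant (5.97 ± 0.51) and Lif, of the same cytokine family, 18.4, 12.6 and 11.1 CPM in media and 225, 179 and 200.1 CPM with adult supernatant (3.86 ± 0.23). Both lay well apart between groups. Kitl (2.08 ± 0.13), the mast cell and progenitor factor, rose too. Csf2 (3.45 ± 0.56) and Csf3 (2.88 ± 0.58), which drive granulocytes and macrophages, rose but stayed at 1.69 and 2.00 CPM on average. Il1rn, the interleukin-1 antagonist, fell (-1.18 ± 0.20), at 10.6, 10.6 and 7.39 CPM in media and 4.19, 3.8 and 4.3 CPM with adult supernatant. Among adhesion and costimulation genes, 12 of 18 rose and 2 fell (median 1.57). Cd274, the checkpoint ligand PD-L1, read 3.8, 4.06 and 3.33 CPM in media and 211, 179 and 219 CPM with adult supernatant, and Cd40 (4.49 ± 0.41), the receptor for T cell help, rose with it. Cd276, a checkpoint molecule of the same family as PD-L1, fell (-1.44 ± 0.11).

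Most NF-kB genes rose, led by an inhibitor-type regulator. In the list of subunits and inhibitors, 15 of 21 measured members rose and 1 fell (median 0.50). Nfkbiz (3.37 ± 0.15), an inducible nuclear regulator needed for Il6 and Lcn2, read 22.9, 29.5 and 21.9 CPM in media and 277, 235 and 255 CPM with adult supernatant. Bcl3 (2.98 ± 0.26) and Nfkbia (1.66 ± 0.16), also inhibitor-type proteins, rose, and of the DNA-binding subunits Nfkb1 rose (1.90 ± 0.11), Relb did not pass (0.03 ± 0.12, adjusted p = 0.875) and Rel fell (-0.65 ± 0.14). In the overlapping list of mRNA decay and feedback, 8 of 15 rose and 1 fell (median 0.78), with Zc3h12a (2.22 ± 0.20), which destroys inflammatory mRNAs, Arid5a (2.14 ± 0.16), which protects them, and Tnfaip3 (2.05 ± 0.31). Among immediate early and AP-1 genes, 12 of 21 rose and 1 fell (median 0.42), led by Atf3 (2.32 ± 0.32), Ier3 (2.03 ± 0.13) and Fosl1 (1.84 ± 0.11).

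Secreted defence proteins rose from low or moderate levels. Of acute phase and antimicrobial genes, 16 of 17 measured members rose and 1 fell (median 3.94). Saa3, a serum amyloid A protein, read 2.19, 3.08 and 2.33 CPM in media and 943, 956 and 842 CPM with adult supernatant, and Serpina3f read 1.37, 1.6 and 1.3 CPM in media and 382, 287 and 410.4 CPM with adult supernatant (7.85 ± 0.29). The Serpina3 genes are close copies, so that single values are uncertain. Lcn2 (7.61 ± 0.73), which binds bacterial iron carriers, and S100a8 (6.60 ± 0.43), of calprotectin, rose, while Lbp, the lipopolysaccharide-binding protein, fell, at 76.9, 125 and 71.4 CPM in media and 38.5, 53.7 and 41.5 CPM with adult supernatant. Of complement genes, 11 of 20 rose and 2 fell (median 1.19). C3, the central component, read 17.8, 21.3 and 14.7 CPM in media and 597, 598 and 718 CPM with adult supernatant, and the inhibitor Serping1 rose (4.03 ± 0.27). The membrane-bound inhibitors Cd59a (-2.06 ± 0.15) and Cd55 (-1.24 ± 0.12) fell. Among the 15 largest rises were also Rarres2 (7.82 ± 0.52), the chemoattractant chemerin, Car4 (8.25 ± 0.65), a carbonic anhydrase, and Fam26f (7.79 ± 0.42).

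Prostaglandin and purine genes rose in part. In the prostaglandin and leukotriene list, 13 of 18 rose and 1 fell (median 0.94). Ptgs2, the inducible cyclooxygenase, read 365, 187 and 308 CPM in media and 1500.0, 1335 and 1512 CPM with adult supernatant, and Ptges (1.87 ± 0.17), which makes prostaglandin E2 from its product, rose, as did Hpgd (1.07 ± 0.24), which inactivates it. Alox5, the leukotriene-forming lipoxygenase, fell (-0.92 ± 0.25). In the purine list, 7 of 15 rose and 4 fell (median 0.66), with Adora2b (4.18 ± 0.20), a low-affinity adenosine receptor, and Xdh (2.58 ± 0.09), xanthine dehydrogenase, at 202, 221 and 180.3 CPM in media and 1262, 1103 and 1228 CPM with adult supernatant. Entpd2, an ATP-cleaving surface enzyme, fell (-1.93 ± 0.29).

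Genes of inflammatory cell death rose more often than they fell. In the cell death list, 18 of 29 measured members rose and 3 fell (median 0.63). Zbp1, a sensor of Z-form nucleic acid, read 1.2, 4.02 and 1.54 CPM in media and 217, 192 and 209.7 CPM with adult supernatant. Media library 2 lay above both other media libraries and below every library with adult supernatant. Casp4 (3.75 ± 0.33), the sensor of cytosolic lipopolysaccharide, Gsdmd (2.41 ± 0.13), the pore protein it cleaves, and Mlkl (2.07 ± 0.16), the necroptosis executor, rose. Of nucleic acid and microbial sensors, 14 of 20 rose and 1 fell (median 1.01), with Nod1 (2.71 ± 0.08) and Ifih1 (2.40 ± 0.46) higher and Tlr5, the flagellin receptor, lower (-1.63 ± 0.28).

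Most collagen genes fell while several enzymes that modify collagen rose. Of fibril-forming and fibril-associated collagens, 1 of 17 measured members rose and 10 fell (median -0.76). Col1a1 read 18805, 19578 and 20332 CPM in media and 6134, 6838 and 5856 CPM with adult supernatant, and Col5a1 (-2.32 ± 0.12), which starts type I fibrils, fell further. Col14a1, a fibril-surface collagen of tendon, read 199, 277 and 196 CPM in media and 5.21, 8.36 and 8.94 CPM with adult supernatant, and Col11a1 fell (-3.05 ± 0.14). The 1 member that rose, Col9a1 (3.14 ± 0.66), was at 0 CPM in media and averaged 1.52 CPM with adult supernatant. Of network, beaded and transmembrane collagens, 4 of 21 rose and 11 fell (median -0.87), and without adult-supernatant library 2 or with quantile normalization 2 rose. Col6a3 (-3.15 ± 0.16) and Col6a1 (-2.24 ± 0.11) of the pericellular type VI network and Col8a2 (-4.85 ± 0.38) fell, while Col28a1 read 5.65, 9.16 and 4.32 CPM in media and 82.5, 80.3 and 76 CPM with adult supernatant (3.68 ± 0.34). In the list of folding, crosslinking and export, 12 of 30 rose and 9 fell (median 0.06). The hydroxylases P4ha2 (1.07 ± 0.13) and Plod2 (0.95 ± 0.10) and the crosslinking enzyme Loxl3 (1.15 ± 0.06) rose, whereas the chaperones Serpinh1 (-0.88 ± 0.05) and Fkbp10 (-0.99 ± 0.06) fell. Lox itself did not pass (0.08 ± 0.07, adjusted p = 0.324), though with quantile normalization its value was 0.75 (adjusted p = 8.83e-07).

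Elastic fibre and proteoglycan genes held several of the largest falls. Of elastic fibre genes, 2 of 17 measured members rose and 12 fell (median -0.99). Eln, elastin, read 81.6, 72.2 and 94.2 CPM in media and 0.535, 0 and 0.399 CPM with adult supernatant, the largest fall of all 14391 genes (-7.86 ± 0.58). The microfibril genes Mfap4 (-3.39 ± 0.49), Mfap2 (-2.21 ± 0.39) and Fbn1 (-1.47 ± 0.12) fell, while Efemp2 (0.52 ± 0.06) and Mfap5 (0.45 ± 0.09), which bind elastin or its microfibrils, rose slightly. Of proteoglycan and hyaluronan genes, 5 of 24 rose and 16 fell (median -0.82), with 3 rises under quantile normalization. Fmod, which shapes collagen fibrils in tendon, read 642, 730.1 and 762 CPM in media and 98.5, 119 and 104 CPM with adult supernatant. Aspn (-4.98 ± 0.38) and Ogn (-3.51 ± 0.25) also fell, and Omd went from 5.29 CPM on average to 0 CPM in all 3 libraries, at least 25.8-fold lower. Vcan, versican, rose (1.26 ± 0.10). Dcn, decorin, read 125, 211 and 164 CPM in media and 317, 273 and 285 CPM with adult supernatant and rose (0.83 ± 0.32), but it missed the threshold with quantile normalization (0.74, adjusted p = 0.0599) and without any 1 of the 6 libraries except media library 2 (adjusted p up to 0.144, without media library 1).

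Genes of matricellular proteins, which sit in matrix and signal to cells, fell more often than they rose. Of their list, 2 of 23 measured members rose and 17 fell (median -1.46). Tnc, tenascin C, rose, at 641, 454 and 664 CPM in media and 5804, 3770.3 and 4603 CPM with adult supernatant, and Spp1, osteopontin, by 1.35 ± 0.14. Nov (-4.81 ± 0.20) and Cilp (-4.58 ± 0.35) were among the 15 largest falls. Postn (-2.96 ± 0.16) and Thbs4 (-3.29 ± 0.28), a tendon thrombospondin, also fell, and Comp read 223, 228 and 278 CPM in media and 73.9, 70.7 and 66.6 CPM with adult supernatant. Of matrix proteases and inhibitors, 8 of 29 rose and 12 fell (median -0.11). The secreted collagenase Mmp13 (2.58 ± 0.45) and stromelysin Mmp3, at 4.79, 7.24 and 6.78 CPM in media and 120.2, 146 and 127 CPM with adult supernatant, rose with the inhibitor Timp1 (2.77 ± 0.12). Mmp2 (-1.76 ± 0.11), Mmp11 (-2.38 ± 0.12) and Adamts12 (-2.59 ± 0.14) fell with the inhibitor Timp3 (-1.95 ± 0.14). Of cathepsins and their inhibitors, 7 of 14 rose and 3 fell (median 0.30), with Ctsc (2.64 ± 0.26) and Ctss (1.30 ± 0.27) higher and the collagen-degrading Ctsk (-0.69 ± 0.08) lower.

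**Figure D2:**
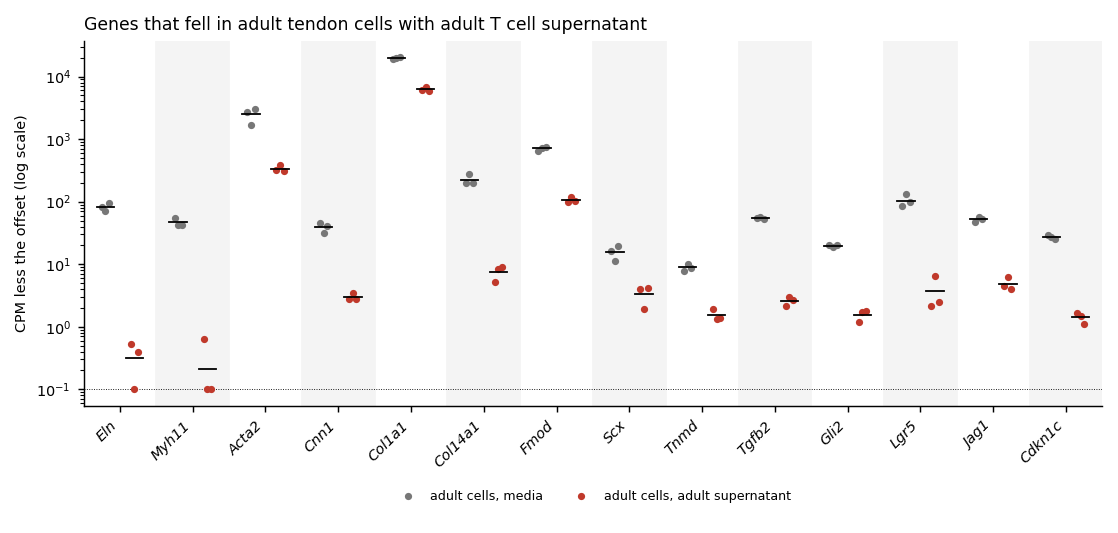
CPM less the offset (log axis) of 14 genes in each library of adult tendon cells in media (grey, n = 3) and with adult supernatant (red, n = 3), with black lines at group means and values under 0.1 CPM drawn at the dotted line. The 3 libraries with adult supernatant lie below the 3 in media for each gene, by the widest margin for Eln and Myh11. The 14 were chosen among genes that fell, and 3899 of all 14391 genes lay lower without overlap.

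Most contractile genes fell. Of the contractile and actin-bundling list, 1 of 31 measured members rose and 24 fell (median -1.26). Myh11, smooth muscle myosin, read 55.3, 41.7 and 42.9 CPM in media and 0.641, 0 and 0 CPM with adult supernatant, and Acta2, smooth muscle actin, 2708, 1683 and 3059 CPM in media and 322, 379 and 315 CPM with adult supernatant. Cnn1 (-3.66 ± 0.22), Actg2 (-3.46 ± 0.21) and Mylk (-2.71 ± 0.20), the kinase that switches on smooth muscle myosin, fell. Myl9, a myosin light chain, fell (-2.33 ± 0.18) and Vcl, vinculin, from 614 to 219 CPM on average. Of the 23 genes of this list with a promoter window 26.1% held a CArG box, against 1.47% of all genes. Their factor Srf (-0.29 ± 0.13, adjusted p = 0.0726) and its partner Mkl1 (-0.33 ± 0.15, adjusted p = 0.0766) did not pass. Tagln2, a transgelin paralogue, rose (1.23 ± 0.09).

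Of YAP-responsive genes, 3 of 20 measured members rose and 10 fell (median -0.34), with Fjx1 (-1.65 ± 0.19) and Ctgf (-0.74 ± 0.18) lower and Lats2, a kinase that restrains YAP, higher (0.57 ± 0.11). Of integrins and focal adhesion genes, 5 of 27 rose and 13 fell (median -0.37). Itga11 (-2.10 ± 0.20), the collagen-binding integrin chain of fibroblasts, and Itga8 (-2.77 ± 0.50) fell, and Itga4 (1.77 ± 0.34) and Itgb7 (2.09 ± 0.34), which pair to bind VCAM1 and MADCAM1, rose. Itgb1, the shared chain, did not pass (-0.04 ± 0.06, adjusted p = 0.637). Of gap junction and cadherin genes, 6 of 20 rose and 11 fell (median -0.66). The connexins Gjb5 (-3.12 ± 0.20) and Gjb2 (-2.39 ± 0.37) fell, whereas Gja1, the main connexin of tendon cells, read 332, 359 and 376 CPM in media and 609, 555 and 604 CPM with adult supernatant (0.73 ± 0.06). Cdh11 (1.01 ± 0.12), the mesenchymal cadherin, rose.

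Tendon identity genes went both ways, as did all genes, of which 28.2% rose and 23.9% fell. Of the tendon lineage list, 6 of 22 measured members rose and 8 fell (median 0.12). The median turned to -0.29 with quantile normalization (4 rose, 9 fell) and to -0.02 without adult-supernatant library 2 (5 rose, 8 fell), and without library 1 with adult supernatant 3 rose. Scx read 16.5, 11.4 and 19.3 CPM in media and 3.99, 1.91 and 4.12 CPM with adult supernatant (-2.24 ± 0.22), Tnmd fell (-2.46 ± 0.30) and Mkx, the other tendon factor, did not pass (0.03 ± 0.27, adjusted p = 0.941). The surface genes Pi16 (-4.09 ± 0.37) and Cd34 (-2.47 ± 0.29) fell, and Ly6a, the stem cell antigen Sca-1, which interferon also induces, rose (1.46 ± 0.14). Of limb-position Hox and related factors, 6 of 32 rose and 11 fell (median -0.16), with Prrx2 (-1.69 ± 0.10) and Hoxa10 (-1.26 ± 0.09) lower and Tbx3 higher (1.54 ± 0.17), while Prrx1, the general limb mesenchyme factor, did not pass (0.07 ± 0.06, adjusted p = 0.354). Of cartilage and bone genes, 3 of 20 rose and 8 fell (median -0.50). Mgp, an inhibitor of calcification, fell (-2.53 ± 0.26), and Sp7 and Mef2c were at 0 CPM in all 3 libraries with adult supernatant, at least 9.86-fold and 12.3-fold lower. Phex rose (3.80 ± 0.61), at 0.353, 0.0803 and 0.499 CPM in media and 4.29, 10.4 and 3.47 CPM with adult supernatant, highest in library 2.

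Genes of developmental signals moved in both directions, as did all genes (28.2% rose and 23.9% fell). Of TGF-beta and BMP genes, 14 of 44 measured members rose and 15 fell (median -0.03). Tgfb2 read 55.3, 56.6 and 52.5 CPM in media and 2.13, 2.96 and 2.69 CPM with adult supernatant, and Tgfb3 fell (-2.81 ± 0.17), while Tgfb1 did not pass (-0.03 ± 0.13, adjusted p = 0.84). Grem1, a secreted BMP antagonist, rose, at 197, 147 and 192 CPM in media and 3118, 2682 and 3107 CPM with adult supernatant, and Nog, another antagonist, fell (-2.04 ± 0.32) together with the ligand Bmp4 (-2.04 ± 0.26). Of Wnt pathway genes, 10 of 38 rose and 19 fell (median -0.45), but 5 or 6 rose with quantile normalization or without any 1 library except adult-supernatant library 3. Lgr5, the R-spondin receptor, read 84.3, 131 and 98.2 CPM in media and 2.14, 6.55 and 2.45 CPM with adult supernatant, its ligand Rspo2 fell (-4.89 ± 0.69), and the inhibitors Dkk2 (-3.24 ± 0.14) and Sfrp2 (-3.48 ± 0.32) fell as Sfrp1 rose (1.97 ± 0.13). Axin2, a target of Wnt signalling, did not pass (0.52 ± 0.26, adjusted p = 0.0984). Of hedgehog and cilium genes, 2 of 14 rose and 8 fell (median -0.36). Gli2, the main activator, read 20.1, 19 and 20.0 CPM in media and 1.18, 1.7 and 1.8 CPM with adult supernatant, with Cdon (-2.70 ± 0.11) and Gas1 (-2.25 ± 0.23), co-receptors, lower and Ptch1, the receptor and target, higher (1.17 ± 0.19). Of Notch genes, 3 of 14 rose and 7 fell (median -0.73), with the ligand Jag1 at 47.4, 57.7 and 53.3 CPM in media and 4.41, 6.27 and 3.95 CPM with adult supernatant and the factor Rbpj higher (1.75 ± 0.06).

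Among growth factors and receptors, 16 of 44 measured members rose and 15 fell (median 0.09), and with quantile normalization 14 rose and 16 fell. Igfbp3 read 20.8, 29 and 20.0 CPM in media and 515, 417 and 631 CPM with adult supernatant, and Igfbp2 fell (-3.84 ± 0.15), both binding proteins of insulin-like growth factors. The epidermal growth factor receptor ligand Ereg (2.61 ± 0.23) rose, and Fgfr2 (-2.47 ± 0.13) and Igfbp5 (-2.60 ± 0.33) fell. Of guidance and neuropeptide genes, 14 of 40 rose and 17 fell (median -0.01), the median turning to 0.06 without adult-supernatant library 2 and to 0.03 without media library 2. Sema7a, a membrane semaphorin that also acts on leukocytes, rose, at 11.3, 12.4 and 10.1 CPM in media and 95.2, 83.3 and 106 CPM with adult supernatant. Sema3d (-5.02 ± 0.42), Npr3 (-4.97 ± 0.25), the clearance receptor of natriuretic peptides, and Epha3 (-3.61 ± 0.29) fell. Of retinoid genes, 6 of 14 rose and 4 fell (median 0.26), with Aldh1a2 (3.57 ± 0.33), which makes retinoic acid, and Rarb (3.61 ± 0.79), a retinoic acid target and receptor, higher and Crabp1 lower (-1.24 ± 0.18). The median of the retinoid list turned to -0.16 with quantile normalization (5 rose, 5 fell), and was also below 0 without adult-supernatant library 2 or 3 or media library 3.

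**Figure D3:**
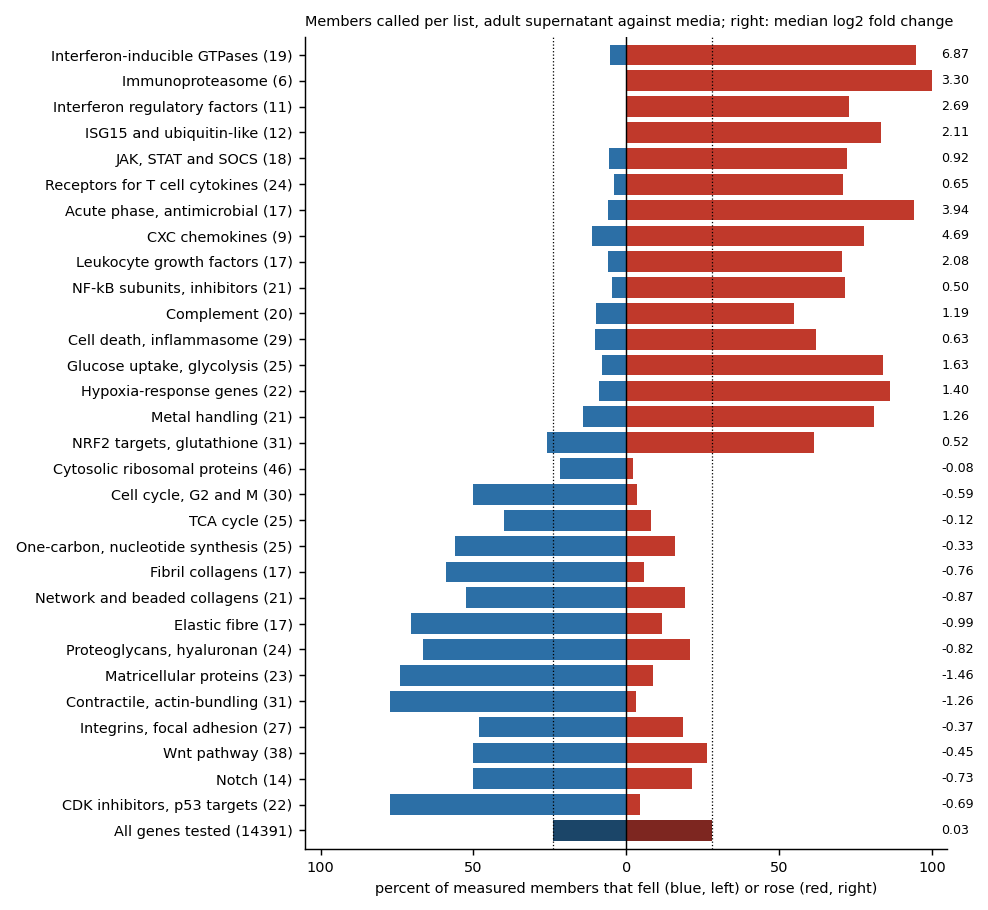
Percent of the measured members of 30 gene lists (number in brackets) that rose (red, right) or fell (blue, left) with adult supernatant against media in adult tendon cells, with the median log2 fold change of each list at the right and dotted lines at the shares of all 14391 genes (28.2% and 23.9%). Interferon, glycolysis and hypoxia lists lie to the right, and contractile, matricellular and p53 lists to the left. The lists were chosen with earlier results of these data known.

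Glycolysis and hypoxia genes rose together. Of glucose uptake and glycolysis genes, 21 of 25 measured members rose and 2 fell (median 1.63). Slc2a1, the glucose importer, read 114, 111 and 87.9 CPM in media and 808, 722 and 702 CPM with adult supernatant, and Slc16a3 (3.16 ± 0.20), which exports lactate, and Pfkfb3 (2.34 ± 0.14), which speeds glycolysis, rose with it. Ldhb went from 0, 6.60 and 3.22 CPM in media to a listed 0 in all 3 libraries with adult supernatant, and since 1 media library is also listed at 0, no fold is given. Of hypoxia-response genes, 19 of 22 rose and 2 fell (median 1.40). Egln3, an oxygen-sensing hydroxylase, read 4.27, 4.24 and 5.25 CPM in media and 109.9, 88.4 and 97.5 CPM with adult supernatant, and Bnip3 (3.30 ± 0.17), of mitochondrial removal, and Ankrd37 (2.60 ± 0.33) rose. Oxygen tension during treatment was not given in the sources used here. Of TCA cycle genes, 2 of 25 rose and 10 fell (median -0.12), with Idh2 (-1.53 ± 0.11) and Suclg2 (-1.31 ± 0.24) lower. Of serine, one-carbon and nucleotide genes, 4 of 25 rose and 14 fell (median -0.33). Rrm1 (-1.88 ± 0.07), of ribonucleotide reductase, and Phgdh (-1.53 ± 0.11), which starts serine synthesis, fell and Mthfd1l rose (1.83 ± 0.10).

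Of sterol and fatty acid genes, 4 of 28 measured members rose and 15 fell (median -0.33). Ch25h, which makes 25-hydroxycholesterol, a repressor of sterol synthesis, read 6.01, 7.05 and 6.31 CPM in media and 155, 132 and 164 CPM with adult supernatant, and Hmgcs1 (-1.23 ± 0.09), Insig1 (-1.16 ± 0.10) and the exporter Abca1 (-1.67 ± 0.19) fell, while the exporter Abcg1 rose (1.70 ± 0.32). Of NRF2 and glutathione genes, 19 of 31 rose and 8 fell (median 0.52). The cystine importer Slc7a11 (3.20 ± 0.15) and Sod2 (2.52 ± 0.15), mitochondrial superoxide dismutase, rose, and Hmox1, haem oxygenase, read 540.1, 547 and 597 CPM in media and 2904, 2787 and 2747 CPM with adult supernatant. Gsta4, a glutathione transferase, fell (-3.56 ± 0.21), as did Gpx1 (-1.05 ± 0.09). Of metal-handling genes, 17 of 21 rose and 3 fell (median 1.26). Cp, ceruloplasmin, read 6.03, 5.66 and 5.32 CPM in media and 259, 271 and 277 CPM with adult supernatant, the metallothioneins Mt2 (5.33 ± 0.22) and Mt1 (3.30 ± 0.15) rose, and Steap3, a ferrireductase, fell (-2.09 ± 0.16). Of amino acid transport and tRNA charging genes, 5 of 25 rose and 13 fell (median -0.27). Wars, the tryptophan tRNA synthetase, rose, at 99.7, 97.3 and 102 CPM in media and 576, 458 and 582 CPM with adult supernatant, and Slc7a5, an importer of large neutral amino acids including tryptophan, fell (-1.89 ± 0.10).

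Genes of mitosis and of the p53 response fell more often than they rose. Of G2 and M genes, 1 of 30 measured members rose and 15 fell (median -0.59), with Kif23 (-1.57 ± 0.42), Cdc20 (-1.33 ± 0.19) and Plk1 (-1.27 ± 0.18), which carry cells through mitosis, lower. Top2a was the member that rose (0.44 ± 0.16), and it missed the threshold without adult-supernatant library 2 or 3 or media library 2 or 3 (adjusted p from 0.0671 to 0.187). Of G1 and S genes, 6 of 28 rose and 9 fell (median -0.23), with Ccnd2 (-1.09 ± 0.07) and Ccnd1 (-0.75 ± 0.13), the cyclins of cell cycle entry, lower and Cdk6 higher (1.08 ± 0.12). Of CDK inhibitors and p53 targets, 1 of 22 rose and 17 fell (median -0.69). Cdkn1c, an imprinted CDK inhibitor, read 29.6, 27.4 and 25.1 CPM in media and 1.68, 1.48 and 1.11 CPM with adult supernatant, Perp fell (-2.81 ± 0.17), Cdkn2b fell (-1.69 ± 0.08), and Mdm2, which degrades p53, was the member that rose (0.47 ± 0.08). Of ER and amino acid stress genes, 3 of 24 rose and 12 fell (median -0.20), with Herpud1 (-1.22 ± 0.09) lower and Eif2ak2, the interferon-induced kinase PKR, higher (1.16 ± 0.20).

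Ribosomal protein, autophagy and clock lists had medians near that of all genes, with counts that moved with the normalization. Of cytosolic ribosomal proteins, 1 of 46 measured members rose and 10 fell (median -0.08), and of autophagy genes 5 of 21 rose and 4 fell (median 0.03), with Tfeb, the lysosome factor, lower (-1.46 ± 0.20). Of circadian clock genes, 6 of 18 rose and 4 fell (median 0.07), with Nfil3 (2.03 ± 0.13) higher. With quantile normalization 0 ribosomal protein genes rose and 25 fell (median -0.19), 2 autophagy genes rose and 5 fell, and 5 clock genes rose and 6 fell. Without media library 3, 4 ribosomal protein genes rose and 10 fell. Of glucocorticoid-responsive genes, 7 of 12 rose and 1 fell (median 0.48). Hsd11b1, which regenerates active glucocorticoid and is itself induced by inflammation, read 6.79, 6.46 and 8.2 CPM in media and 206, 176 and 199 CPM with adult supernatant, while Tsc22d3 (GILZ), a classical glucocorticoid target, fell (-1.61 ± 0.15) and Fkbp5 did not pass (-0.59 ± 0.29, adjusted p = 0.102). Of DNA and histone modifiers, 9 of 28 rose and 5 fell (median 0.20), with Phf11d (4.75 ± 0.85) and Samhd1 (3.38 ± 0.18), a nucleotide-cleaving antiviral enzyme, higher and Kdm6b lower (-0.92 ± 0.06).

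Marker genes were read to see which cells the cultures held. All 14 tendon fibroblast markers were measured, 2 of 14 rose and 10 fell (median -1.62), and their summed level ran from 33741 to 37036 CPM in media and 12679.5 to 14672 CPM with adult supernatant. Of T cell markers, 5 of 14 were measured, of which 2 rose and 0 fell (median 1.52), and the summed level was 1.85 to 3.63 CPM in media and 6.1 to 16.5 CPM with adult supernatant. Cd4 read 0.56, 0.466 and 0.18 CPM in media and 3.74, 8.66 and 2.79 CPM with adult supernatant (3.21 ± 0.58) and Cd3d went from 0.365 to 1.76 CPM on average (1.88 ± 0.52). Each of the 5 averaged under 1 CPM in media, and Cd4 was highest in library 2. Of B and NK cell markers 2 of 10 were measured (Pax5 3.32 ± 1.05, Ms4a1 2.59 ± 0.70), with a summed level of 0.073 to 0.773 CPM in media and 2.76 to 6.38 CPM with adult supernatant. Of neutrophil and mast cell markers 4 of 10 were measured and all rose (Cxcr2 3.64 ± 0.42, Ly6g 3.59 ± 0.53, Kit 2.53 ± 0.71, Mpo 1.48 ± 0.59), with 1.57 to 1.97 CPM in media and 8.72 to 33.7 CPM with adult supernatant. The deposited table keeps genes that reach 1 CPM in at least 3 libraries. Markers of T, B, NK, neutrophil and mast cells this low in media therefore had to be higher in other groups. That filter favoured rises among the measured members of these lists. Macrophage markers (4 of 12 rose, 2 fell, median 0.31) summed to 119 to 155 CPM in media and 84.2 to 98.8 CPM with adult supernatant, with Ptprc (2.51 ± 0.55) higher and Lyz2 (-1.36 ± 0.20) and Mertk (-1.12 ± 0.26) lower. Without adult-supernatant library 3 or media library 1, 2 macrophage markers rose and 2 fell. With quantile normalization 2 macrophage markers rose and 3 fell, and Cd3d (0.82, adjusted p = 0.17), Ms4a1 (1.39, 0.0839), Kit (1.80, 0.0537) and Mpo (0.48, 0.502) missed the threshold. Mpo also missed it without any 1 library but adult-supernatant library 3 (adjusted p from 0.0581 to 0.257), and without media library 1 Pax5 was at 2.77 (adjusted p = 0.0626).

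Endothelial markers (1 of 11 rose, 2 fell, median 0.07) summed to 75.3 to 77.1 CPM in media and 48.7 to 70.4 CPM with adult supernatant, with Pecam1 higher (1.28 ± 0.37) and Kdr (-2.04 ± 0.29) and Tek (-1.99 ± 0.21) lower. With quantile normalization 1 rose and 4 fell, and the median was below 0 there and without library 2 of either group. Mural cell markers (0 of 8 rose, 6 fell, median -1.89), among them Rgs5 (-2.07 ± 0.35), Pdgfrb (-1.85 ± 0.10) and Cspg4 (-3.32 ± 0.26), summed to 1262 to 1325 CPM in media and 309.6 to 359 CPM with adult supernatant. Skeletal muscle markers (2 of 4 rose, 1 fell, median 1.04) held Ttn, titin, at 0.798, 0.254 and 1.63 CPM in media and 23.4, 99.8 and 16.2 CPM with adult supernatant, again highest in library 2, and Myh1 (2.65 ± 0.58), while Acta1 fell (-1.84 ± 0.27). The muscle sum was 19.5 to 43.4 CPM in media and 28.5 to 113 CPM with adult supernatant. Schwann cell markers (2 of 8 rose, 1 fell, median 1.01) summed to 10.6 to 13.9 CPM in media and 11.6 to 21.2 CPM with adult supernatant. Keratinocyte markers (2 of 4 rose, 1 fell, median 1.40) summed to 30.6 to 33.9 CPM in media and 7.94 to 19.3 CPM with adult supernatant, and adipocyte markers (2 of 4 rose, 1 fell, median 0.05) to 64.6 to 86.5 CPM in media and 85.3 to 108 CPM with adult supernatant. With quantile normalization no Schwann cell marker rose and 1 fell, and of keratinocyte markers 1 rose and 1 fell. The adipocyte median was below 0 without adult-supernatant library 2 or media library 1. In bulk RNA a change in the number of cells of a type and in RNA per cell cannot be told apart, and the part of other cells in these results was not tested.

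The response was compared directly with that of adult cells to neonatal supernatant. Between the supernatants 4110 genes differed (28.6%), 1939 higher (13.5%) and 2171 lower (15.1%) with adult supernatant. Among the 10 genes of smallest p on the higher side were Wars, Cttnbp2nl (1.45 ± 0.06), Hmox1 (1.65 ± 0.07), Slco3a1 (2.62 ± 0.12), Hmga2 (1.40 ± 0.07), Stom (1.62 ± 0.09), Nos2, Ipo5 (1.20 ± 0.07) and Prdx1 (1.64 ± 0.09), in that order. Nos2 read 41.2, 25.6 and 11.2 CPM with neonatal supernatant, a difference of 7.19 ± 0.38. Wars read 106, 106 and 95 CPM with neonatal supernatant, close to its media libraries, and the supernatants differed by 2.39 ± 0.08. Of interferon-inducible GTPases 17 of 19 were higher and 0 lower (median 4.07), of the immunoproteasome 6 of 6 were higher and 0 lower (median 1.83) and of CXC chemokines 6 of 9 were higher and 2 lower (median 1.55), against a median of 0.01 for all genes.

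Some genes ran the other way between the supernatants. Ccl11, eotaxin, read 703, 949 and 511 CPM with neonatal supernatant, above all libraries with adult supernatant (-1.74 ± 0.31), and Cxcl12 read 704, 875 and 821 CPM (-1.06 ± 0.15). Gas6, a ligand of the receptor Axl, had the smallest p among lower genes (-2.17 ± 0.07), followed by Col6a1, which read 1446, 1644 and 1852 CPM with neonatal supernatant (-2.80 ± 0.11) against a mean of 1110 CPM in media. Comp read 412, 370.4 and 470.3 CPM (-2.56 ± 0.11), and Cygb (-2.99 ± 0.13), Pappa (-3.14 ± 0.17) and Mmp11 (-2.28 ± 0.12) were lower too. In matricellular genes 2 of 23 were higher and 16 lower (median -1.20), in elastic fibre genes 0 of 17 were higher and 13 lower (median -0.84), in contractile genes 1 of 31 were higher and 17 lower (median -0.68) and in sterol genes 1 of 28 were higher and 19 lower (median -0.63). In YAP-responsive genes 6 of 20 were higher and 2 lower (median 0.11). In p53 targets and CDK inhibitors 2 of 22 were higher and 5 lower (median -0.12). The largest adjusted p among the single genes given for this comparison was 0.000319 (Ccl11).

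**Figure D4:**
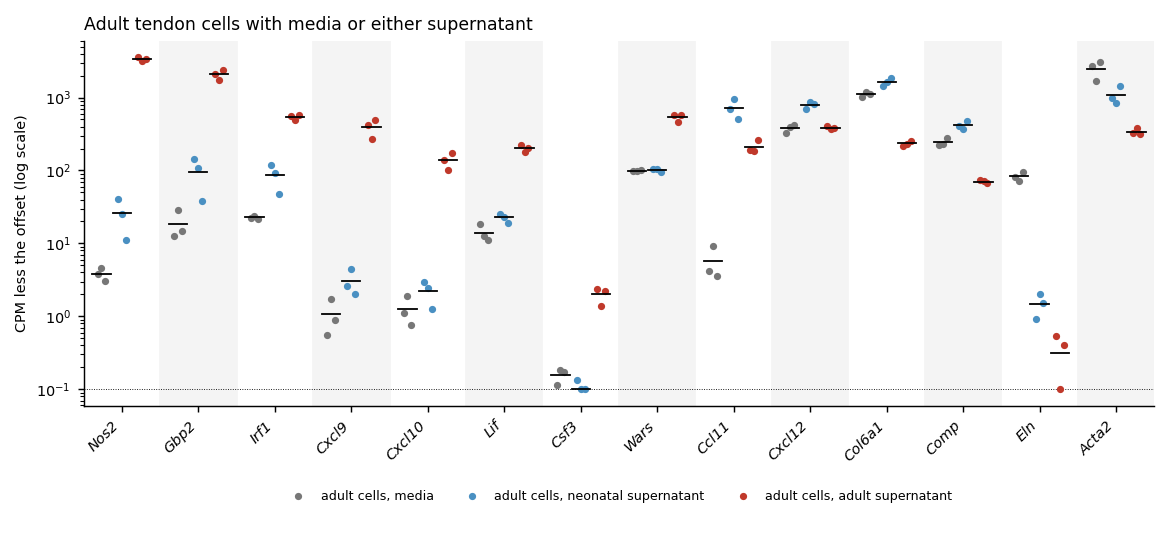
CPM less the offset (log axis) of 14 genes in each library of adult tendon cells in media (grey), with neonatal supernatant (blue) and with adult supernatant (red), n = 3 each, with black lines at group means and values under 0.1 CPM drawn at the dotted line. Nos2, Gbp2, Irf1 and Lif lie highest with adult supernatant, Ccl11, Cxcl12, Col6a1 and Comp highest with neonatal supernatant, and Eln and Acta2 lowest with adult supernatant.

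The response to adult supernatant was also compared with that of neonatal cells, whose media libraries are their own and in which 47.8% of genes passed for adult supernatant against media. It differed for 655 genes (4.55%), 223 with a higher log2 response in adult cells (1.55%) and 432 with a lower one (3.0%). With TMM-type scaling the split was 253 and 319. The interferon-inducible GTPases held no such gene (19 measured, 1 at an unadjusted p under 0.05, median -0.33). Neither did the immunoproteasome (6 measured, 1 at an unadjusted p under 0.05, median -0.25). The list for the interferon-gamma chain held none (10 measured, 1 at an unadjusted p under 0.05, median -0.11). The list of mRNA decay and feedback held none either (15 measured, 4 at an unadjusted p under 0.05, median -0.09). Of all genes 17.8% were at an unadjusted p under 0.05, and at the share called over all genes lists this short would hold few or none. Of 21 NF-kB subunits and inhibitors 1 had a lower response in adult cells. The number of differing genes was 406 without adult-supernatant library 1, 434 without neonatal-cell media library 2 and 418 without neonatal-cell adult-supernatant library 3.

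The 10 genes of smallest p with a lower response in adult cells were led by Sfrp1 and Xdh. Sfrp1, a Wnt inhibitor, read 56.2, 50.6 and 44.8 CPM in neonatal media and 1134, 1318 and 1294 CPM in neonatal cells with adult supernatant, against 476 and 1848 CPM on average in adult cells (-2.66 ± 0.18). C1s1, a complement protease, read 25.4, 21.7 and 18.8 CPM and 716, 825 and 729 CPM in neonatal cells (-2.60 ± 0.25). For both, the neonatal cells began lower and rose further. Col14a1 differed (-4.25 ± 0.35), at 39.2, 40.4 and 45.4 CPM in neonatal media and 22.2, 25.4 and 33 CPM with supernatant, a change of -0.65 ± 0.25 in neonatal cells. Xdh (-1.75 ± 0.13), Igfbp4 (-1.56 ± 0.13), Gas6 (-1.17 ± 0.10), Heg1 (-1.23 ± 0.12), Figf (-1.32 ± 0.13) and Igsf10 (-1.83 ± 0.19) were also among them. Among complement genes 1 of 20 had a higher and 5 a lower response in adult cells (median -0.89), with C3 at 2.07, 2.83 and 0.732 CPM in neonatal media and 450.1, 585 and 573 CPM with supernatant (-3.08 ± 0.53). Among sterol genes 0 of 28 had a higher and 9 a lower response in adult cells (median -0.37), with Hmgcs1 (-0.79 ± 0.12) lower in the response of adult cells.

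Genes with a higher response in adult cells included Sema7a (2.49 ± 0.18), which read 16.6, 17.5 and 17.5 CPM in neonatal media and 24.4, 25.8 and 26.4 CPM with supernatant. Nid1 (1.48 ± 0.12), nidogen of basement membranes, rose in adult cells and fell in neonatal cells, where it read 683, 779.7 and 889.8 CPM and 473, 514 and 489 CPM. Hmga2 (0.97 ± 0.10), a chromatin protein of growing mesenchyme, Hmox1 (0.83 ± 0.10), Spp1 (1.41 ± 0.20) and Prdx1 (0.92 ± 0.13) also had the higher response in adult cells, as did Fam20c (1.28 ± 0.18), Rasa1 (0.70 ± 0.10), Igf2bp2 (0.69 ± 0.10) and Tmcc3 (1.06 ± 0.15). Of NRF2 and glutathione genes 5 of 31 had a higher and 1 a lower response in adult cells (median 0.16), with Slc7a11 (1.03 ± 0.21) higher. Of AP-1 and immediate early genes 4 of 21 had a higher and 2 a lower response in adult cells (median 0.22), with Jun (0.67 ± 0.12) higher. Of fibril collagens 0 of 17 had a higher and 3 a lower response in adult cells (median -0.35), and of guidance genes 4 of 40 had a higher and 8 a lower response in adult cells (median -0.36). Over all genes the median difference was -0.06. The largest adjusted p among the single genes given for this comparison here was 0.00982 (Slc7a11).

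**Figure D5:**
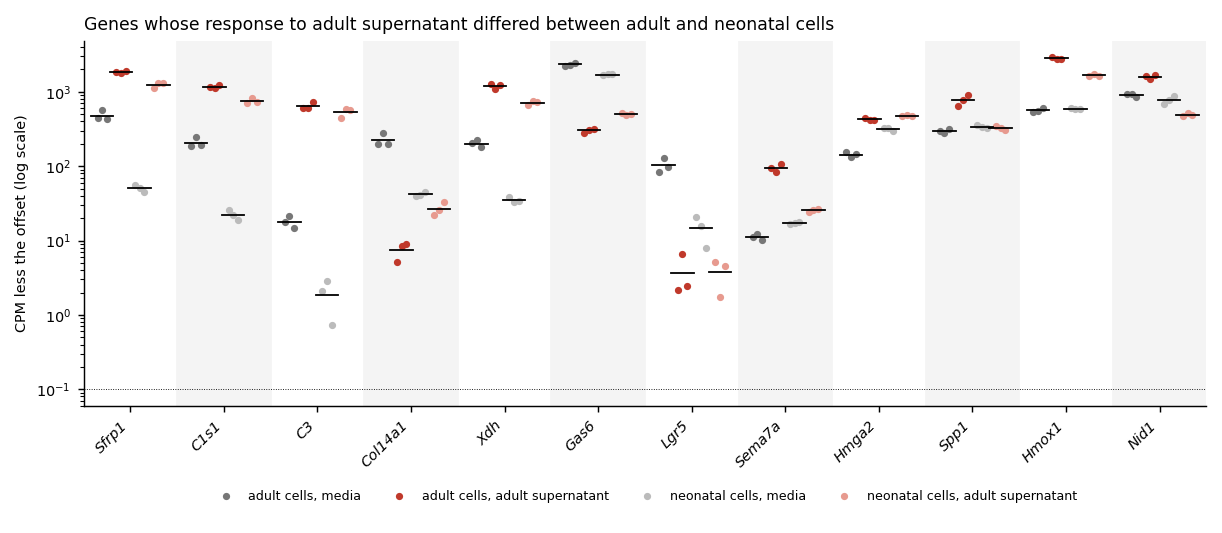
CPM less the offset (log axis) of 12 genes in adult cells in media (dark grey) and with adult supernatant (red) and in neonatal cells in media (light grey) and with adult supernatant (pink), n = 3 each, with black lines at group means. Sfrp1, C1s1 and C3 start lower in neonatal media and rise further, Col14a1 falls further in adult cells, and Nid1 moves in opposite directions.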

How the data were processed

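Polyadenylated RNA was made into NEBNext Ultra II libraries, per the labels' protocols. Counting used kallisto against GRCm39 and limma 3.56.2, per the submitters' processing notes; the kallisto version and any use of strand were not given in the sources used here. Values deposited by the authors are log2 CPM (reads of a gene scaled to the library's total) for 14391 genes in 18 libraries. The lowest value, 0.1269 CPM, was taken as an offset of 2 reads and subtracted for printed levels, and levels under 0.006 CPM were set to 0. Depth, estimated from the steps between low values, was 12.7 to 17.7 M reads, and a level of 0 was bounded at 3 reads, which covers counting error only. The steps fitted weakly. At the chosen depth 9.3 to 19.7% of low values were near whole reads, against 7.2 to 16.0% at the best other depth. The depths are therefore uncertain, as are the floor of 3 reads and the folds written as at least, which rest on them.

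All 18 libraries in 6 groups entered 1 limma-trend model (limma 3.58.1, R 4.3.3; two-sided) on the deposited log2 CPM. It had 12 residual degrees of freedom and 4.6 from the prior, and p-values were adjusted by Benjamini-Hochberg over all genes, with a threshold of 0.05. The fit was tested on simulated data, with noise drawn independently for each gene and library. That simulation held no shift shared by a whole library and no floor, so it does not bear on those. The difference between cell ages is the interaction of cell age and supernatant. Labels give 1 batch for all libraries.

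The members and the 73 gene lists (1574 memberships, 1429 measured, 21 under another symbol) were chosen with earlier results of these data known. The text names the 15 largest rises and falls with no overlap between groups and at least 5 CPM, up to 6 members of each direction per list, members that did not pass where a role is described, and for the 2 differences the 10 smallest p of each direction; some genes this rule picks are not used here. RefSeq (GRCm38.p6) holds 14190 of the gene names, while 21 names were turned to dates, 1 occurs more than once and 3 lines duplicate others. Alternatives were TMM-type scaling, quantile normalization, a pseudocount of 1 CPM, a filter of 5 CPM in 3 libraries, no trend, only the groups compared, a replicate block and leaving out each library. Tables and plots used matplotlib 3.10.9, scipy 1.17.1, pandas 2.3.3, numpy 2.4.6 and Python 3.11.15.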

Additional observations from a re-analysis of the deposited data

Results flagged for a closer look

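The response to adult supernatant differed between adult and neonatal cells for 655 genes by the interaction term of the limma fit at an adjusted p under 0.05, and each gene below was picked out by that test of the difference itself. Values are the difference between the log2 responses, adult cells less neonatal cells, followed by both responses.

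The response was positive in cells of both ages, and larger in adult cells, for Hmga2 (0.97: 1.58 in adult and 0.61 in neonatal cells), Hmox1 (0.83: 2.33 in adult and 1.49 in neonatal cells), Igf2bp2 (0.69: 1.13 in adult and 0.44 in neonatal cells), Jun (0.67: 1.15 in adult and 0.49 in neonatal cells), Prdx1 (0.92: 2.23 in adult and 1.31 in neonatal cells), Sema7a (2.49: 3.06 in adult and 0.57 in neonatal cells), Slc7a11 (1.03: 3.20 in adult and 2.17 in neonatal cells) and Tmcc3 (1.06: 2.03 in adult and 0.97 in neonatal cells). They include genes of the oxidative stress response, of which Hmox1 degrades haem and Slc7a11 imports cystine.

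It was positive in both and larger in neonatal cells for C1s1 (-2.60: 2.51 in adult and 5.11 in neonatal cells), C3 (-3.08: 5.16 in adult and 8.23 in neonatal cells), Sfrp1 (-2.66: 1.97 in adult and 4.63 in neonatal cells) and Xdh (-1.75: 2.58 in adult and 4.33 in neonatal cells). Both complement genes started from lower levels in neonatal media than in adult media.

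It was negative in both and further below 0 in adult cells for Col14a1 (-4.25: -4.90 in adult and -0.65 in neonatal cells), Gas6 (-1.17: -2.94 in adult and -1.78 in neonatal cells), Hmgcs1 (-0.79: -1.23 in adult and -0.44 in neonatal cells), Igfbp4 (-1.56: -1.98 in adult and -0.41 in neonatal cells) and Igsf10 (-1.83: -2.14 in adult and -0.31 in neonatal cells).

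The signs of the responses were opposite for Fam20c (1.28: 0.87 in adult and -0.42 in neonatal cells), Figf (-1.32: -0.72 in adult and 0.60 in neonatal cells), Heg1 (-1.23: -0.74 in adult and 0.49 in neonatal cells), Nid1 (1.48: 0.81 in adult and -0.66 in neonatal cells), Rasa1 (0.70: 0.29 in adult and -0.41 in neonatal cells) and Spp1 (1.41: 1.35 in adult and -0.06 in neonatal cells). Of these, Fam20c, Figf, Heg1, Nid1 and Rasa1 passed the threshold in opposite directions, the largest adjusted p in the same limma fit being 0.0108 for Fam20c in neonatal cells and 0.00208 for Rasa1 in adult cells. Spp1 passed in adult cells, and its response in neonatal cells had an adjusted p of 0.752. Among the genes negative in both, the response of Igsf10 in neonatal cells did not pass. All 23 genes given here kept their direction and stayed past the threshold under each alternative listed in the methods that gave a value. Most were picked for their small p in this comparison, so that outcome was nearly fixed beforehand.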

How the results depend on the processing

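The counts of called genes moved by less than 1.5 times under every alternative for adult supernatant against media (6054 to 7534) and between the supernatants in adult cells (3264 to 4517). The number of genes whose response differed between cell ages was 477 to 739 under the alternatives that keep all libraries, and 406 to 745 when 1 library was left out. Quantile normalization, which lowers the median of all genes by 0.12, turned the split of the response from 54.1% to 41.7% higher, and TMM-type scaling turned that of the age difference from 34.0% to 44.2% higher. Of 227 named genes that passed for adult supernatant against media, 9 lost the call under at least 1 alternative (Cd3d, Dcn, Kit, Mpo, Ms4a1, Mx1, Pax5, Stat6 and Top2a). Of the named genes of the other comparisons, 23 and 17, none did. Most of these were picked for the smallest p of the same comparison, so that outcome was nearly fixed beforehand. It does not speak for the other genes called there. Signs turned only among genes that did not pass: with quantile normalization Cxcl12 was at -0.12, Mkx at -0.12, Prrx1 at -0.067 and Psmb7 at -0.013, and with TMM-type scaling Cxcl12 was at -0.0052. With 1 library left out in turn, the value ran for Cxcl12 from -0.091 to 0.082, Ifngr1 from -0.064 to 0.043, Il17ra from -0.0305 to 0.12, Irf3 from -0.11 to 0.33, Mkx from -0.22 to 0.32, Relb from -0.056 to 0.14 and Tgfb1 from -0.14 to 0.047, each across 0. The cause of each of these changes was not tested.

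Deviations from the group means were compared between media and adult-supernatant libraries of adult cells. Libraries of the same number had correlations of 0.032, 0.067 and 0.067, and those of unlike number lower ones, from -0.072 to 0.013. All of these are small, so the numbers are not shown to pair the libraries. With the replicate block 7429 genes passed for adult supernatant against media, 645 for the age difference and 4032 between the supernatants, and among named genes Mpo lost its call (1.48, adjusted p = 0.0518). A level under 3 reads (0.172 to 0.231 CPM in the 6 libraries) was not detectable as expression at these depths, and folds written as at least are lower bounds, while fitted log2 values of genes with libraries at 0 are not. With quantile normalization the lists of arginine and tryptophan enzymes, mRNA decay, immediate early genes and cathepsins held 3, 3, 3 and 5 falls.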
